A study of Rattus norvegicus with 12 samples.

Results

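The natriuretic peptide system was followed in the left ventricle of 12 adult rats through 6 genes, which were the rows of the deposited table whose symbol was Nppa, Nppb, Npr1, Npr2, Npr3 or Corin, 6 rows of 32735. All rats were of the wild-type Groningen strain. The RSD group (n = 6) went through social defeat as intruders in the cage of a resident on 8 consecutive days, and the CTR group (n = 6) was left unhandled, so handling and defeat cannot be told apart. Messenger RNA from ventricular punches was read near its 3' end, 1 library per rat, and the comparison asks how repeated defeat alters transcripts of the heart.

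Natriuretic peptides are hormones that heart muscle cells release when the wall is stretched. They bind receptors that make the second messenger cGMP, which relaxes vessels, promotes salt excretion and restrains growth of heart muscle. In the adult heart Nppa is transcribed mainly in the atria and weakly in the ventricle, and Nppb is transcribed in both, so that their ventricular transcripts are widely read as markers of load.

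Libraries held 2062798 to 3731108 reads, of which the mitochondrial genome took 49.7% to 58.4%. Values below are normalised CPM, reads scaled to an equal total and divided by a factor for each library. Marker genes of heart muscle (Myh6, Myl2, Tnnt2 and 6 others) summed to 46390 to 53075 normalised CPM in CTR and 47477 to 53203 in RSD. RSD 40 is labelled female in a study of males, but its Y-linked transcripts Eif2s3y (24 reads) and Kdm5d (35 reads) were within the range of the other 11 libraries. Its label thus goes against these transcripts, and values without it are given below for the members and for the other results that lead.

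Nppa and Nppb are direct neighbours on rat chromosome 5 in the RefSeq annotation, with 0 genes between them and promoter windows 12176 bases apart. Both promoters are shown because the transcripts of this gene pair differed in their pattern over the 12 rats. Each run holds 250 bases before and 50 after the annotated start, from RefSeq on build GRCr8, plus strand, at chr5:163711934-163712233 for Nppa and chr5:163699758-163700057 for Nppb. Capitals mark matches, on either strand, to GATAA (bound by GATA factors), GGAATG (the M-CAT element bound by TEAD factors) and AAGTG (the core bound by Nkx2-5).
Nppa: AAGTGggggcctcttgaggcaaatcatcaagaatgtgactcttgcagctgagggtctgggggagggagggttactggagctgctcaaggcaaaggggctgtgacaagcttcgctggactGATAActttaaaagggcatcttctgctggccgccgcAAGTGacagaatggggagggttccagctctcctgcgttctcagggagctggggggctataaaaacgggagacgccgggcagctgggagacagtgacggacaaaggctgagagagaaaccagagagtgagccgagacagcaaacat
Nppb: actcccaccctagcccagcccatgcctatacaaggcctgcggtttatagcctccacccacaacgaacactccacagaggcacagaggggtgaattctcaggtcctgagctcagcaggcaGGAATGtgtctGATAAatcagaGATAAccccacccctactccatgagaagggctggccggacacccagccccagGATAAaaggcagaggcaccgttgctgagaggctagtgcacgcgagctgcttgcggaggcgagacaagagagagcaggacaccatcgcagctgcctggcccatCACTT
The Nppb window held 3 GATAA matches, beginning 120, 109 and 57 bases before the start, 1 GGAATG match beginning 131 bases before it, and 1 AAGTG match on the minus strand in the last 5 bases of the window. The Nppa window held 1 GATAA match, beginning 131 bases before the start, no GGAATG match, and 2 AAGTG matches beginning 250 and 95 bases before it. Of 33469 rat promoters of the same length, 26.5% held at least 1 match to GATAA, 14.2% to GGAATG and 46.2% to AAGTG. The shares with 2 or 3 matches were not worked out. The TATA box letters TATAAA (14.2% of promoters) began 39 bases before the start in Nppa and lay 208 bases before it, on the minus strand, in Nppb. CACGTG (an E-box, 6.42% of promoters) and TTATGNAA (the D-box, 3.66%) had 0 matches in both windows. No match overlapped a match to another of the 6 motifs. These matches describe the letters and are not evidence of binding.

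Nppb, which encodes brain natriuretic peptide (ENSRNOG00000008141), had a lower mean in defeated rats, without passing the test over all genes. In CTR it ranged from 71.2 (CTR 22) to 126 normalised CPM (CTR 24) with a median of 101, and in RSD from 41.0 (RSD 33) to 89.0 (RSD 39) with a median of 80.2. The controls CTR 23, CTR 24 and CTR 27 lay above every RSD library, RSD 33 and RSD 35 lay below every control, and the other 7 libraries overlapped between 71.2 and 89.0. RSD 33 was also the library with the fewest reads (2062798), and its Nppb value rests on 81 of them. The means were 100.2 ± 24.4 in CTR and 70.2 ± 21.6 in RSD (SD, n = 6 each), and all 6 RSD libraries were below the CTR mean. The log2 fold change on the log2(CPM + 1) scale was −0.54 (SE 0.18, 95% interval −0.90 to −0.17), with limma adjusted p = 0.435 and unadjusted p = 0.0058, the 93rd smallest of 7511 genes. The exact two-sided permutation test of the same difference over all assignments of 6 libraries to each group gave p = 0.0671. The limma SE, interval and p draw on the variance of all genes tested, whereas the permutation test uses the Nppb values alone.

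Among the 4 members that passed the filter on low counts, 0 passed adjusted p 0.05, where 0.0266% of all genes tested did (2 of 7511). At an unadjusted p under 0.05 there was 1 member, Nppb, where the background was 8.36% of all genes (628 of 7511), made up of 4.47% lower (336) and 3.89% higher in RSD (292). Leaving out 1 library at a time kept the sign of the Nppb difference in each of 12 fits, with log2 fold changes from −0.63 without CTR 22 (limma adjusted p = 0.107) to −0.40 without RSD 33. Without RSD 40 it was −0.61 (limma adjusted p = 0.4001).

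Nppa, which encodes atrial natriuretic peptide (ENSRNOG00000008176), differed more between defeated rats than between the groups. It ranged from 73.3 (CTR 27) to 178 normalised CPM (CTR 25) in CTR, with a median of 135, and from 42.4 (RSD 35) to 372 (RSD 38) in RSD, with a median of 166. The groups overlapped, with RSD 38 and RSD 39 above every control and RSD 35 below every control. The means were 132 ± 34.9 in CTR and 176 ± 111 in RSD (SD, n = 6 per group), and the fold change in log2 units was 0.20 (SE 0.29, 95% interval −0.39 to 0.78, limma adjusted p = 0.885). The SE and interval draw on the variance of all genes tested, so they do not measure the spread of Nppa between rats alone. The exact two-sided permutation test of the same difference gave p = 0.686. The fold change rested on single rats. It was −0.067 without RSD 38, 0.55 without RSD 35, 0.04 without CTR 27, 0.15 without RSD 40, and 0.43 by edgeR on the recovered reads, and the difference passed adjusted p 0.05 in none of these fits.

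**Figure D1:**
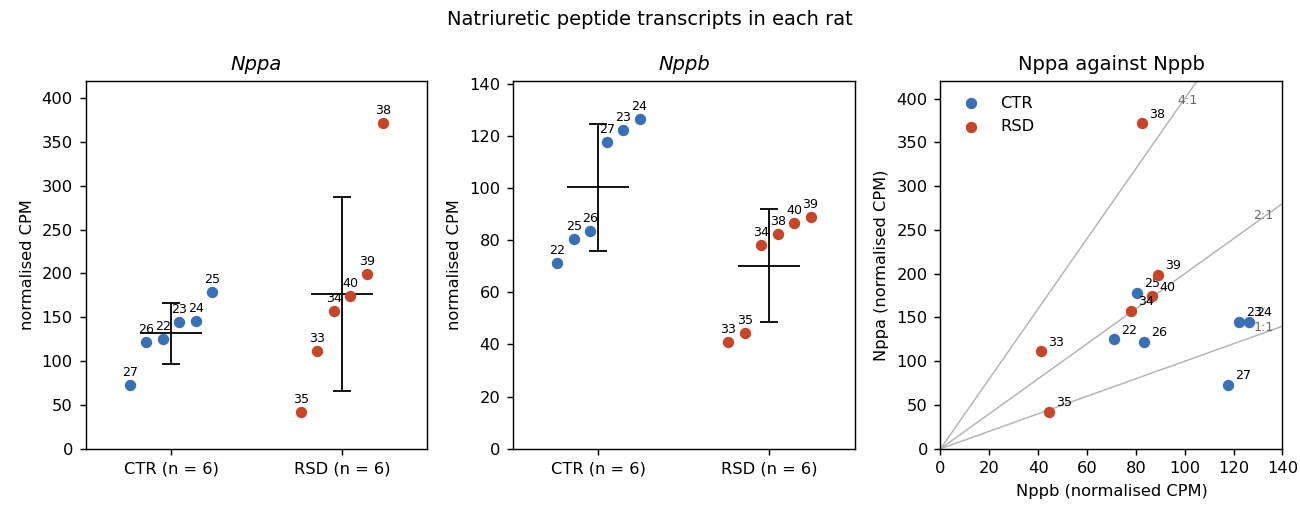
Normalised CPM of Nppa and Nppb in each rat (points, labelled by library number; horizontal line and bar, mean and SD, n = 6 per group), and the 2 transcripts against each other with lines of constant ratio. Nppa spans 42.4 to 372 normalised CPM in RSD, and for Nppb 3 controls lie above all RSD libraries, with 2 RSD libraries below all controls.

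The ratio of Nppa to Nppb reads within a library needs no scaling between libraries. It was chosen after the values of both genes had been seen. There were 0.622 (CTR 27) to 2.22 (CTR 25) Nppa reads per Nppb read in CTR and 0.952 (RSD 35) to 4.51 (RSD 38) in RSD. RSD 33, RSD 38 and RSD 39 lay above every control, and RSD 39 (2.24) only just did so. The mean log2 ratio was 0.38 ± 0.63 in CTR and 1.12 ± 0.73 in RSD (SD, n = 6 each), a difference of 0.74 (exact two-sided permutation p = 0.0887; assigning 6 libraries to each group can give no p below 0.00216). Leaving out 1 library at a time, the exact p stayed above 0.05 in 10 of 12 cases. It was 0.184 without RSD 38 and 0.180 without CTR 27, each with a difference of 0.53, and 0.113 without RSD 40. The exact p was 0.013 without RSD 35, the RSD library with the lowest ratio, and 0.0498 without CTR 25, the control with the highest. The differences there were 0.98 and 0.90.

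After the group means were removed, log2 levels of Nppa and Nppb had a Pearson r of 0.52 over the 12 libraries (permutation p = 0.154) and a Spearman rho of 0.59 (permutation p = 0.076). Adjusted over the 6 pairs of tested members, these were 0.857 and 0.448. Without RSD 35 and RSD 38, the libraries farthest from the Nppa median, r was 0.26. Leaving out the extremes of Nppa can itself lower r, so this does not show that the relation rests on those libraries. The r was −0.25 within CTR and 0.77 within RSD, a difference that was not tested, and 0.51 without RSD 40. RSD 35 was low for both transcripts, whereas CTR 27 was the lowest control for Nppa and in the upper group of controls for Nppb. The other 5 pairs among Nppa, Nppb, Npr1 and Npr2 had r from −0.12 to 0.33, and 0 of 6 passed by either coefficient. Pairs with Npr3 or Corin, which had 2 to 10 reads in a library, were not tested. Their r ran from −0.50 (Nppb with Corin) to 0.73 (Nppb with Npr3, rho 0.78), which was above that of Nppa with Nppb. Nppb with Npr2 also had r of opposite sign within the groups, 0.63 in CTR and −0.69 in RSD.

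Npr1 and Npr2 encode the receptors that make cGMP. Npr1, the receptor for both cardiac peptides (ENSRNOG00000014684), ranged from 6.69 to 15.8 normalised CPM in CTR (median 9.79) and from 8.49 to 16.2 in RSD (median 10.9). The groups overlapped almost fully, with CTR 26 and RSD 40 as the highest libraries. The means were 10.3 ± 3.39 and 11.8 ± 3.08 (SD, n = 6 per group), and the fold change in log2 units was 0.19 (95% interval −0.27 to 0.65, limma adjusted p = 0.855), or 0.10 without RSD 40 and 0.09 without CTR 25.

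Npr2, the receptor for C-type natriuretic peptide (ENSRNOG00000015991), was the member with the tightest values. It ranged from 21.0 to 32.9 normalised CPM in CTR (median 24.7) and from 27.7 to 32.9 in RSD (median 28.2). All 6 RSD libraries were above the CTR mean, while CTR 23 and CTR 24 lay within the RSD range. The means were 26.0 ± 4.31 and 29.0 ± 1.97 (SD, n = 6 per group), and the fold change in log2 units was 0.16 (95% interval −0.13 to 0.46, limma adjusted p = 0.795), and 0.16 without RSD 40 as well.

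Nppc, which encodes C-type natriuretic peptide, and Ostn, which encodes osteocrin, a ligand of the clearance receptor, each had 0 reads of 35080063 over the 12 libraries. A count of 0 allows up to 0.0855 CPM (3 reads over all libraries), for counting error only.

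Npr3, the clearance receptor that removes natriuretic peptides (ENSRNOG00000019184), and Corin, the protease of heart muscle cells that cuts pro-ANP into the active hormone (ENSRNOG00000002302), did not pass the filter. Npr3 had 4 to 7 reads per library in CTR and 2 to 7 in RSD, at 1.57 ± 0.48 and 1.37 ± 0.54 normalised CPM (SD, n = 6 each). Summed over each group these were 28 reads (exact 95% Poisson interval 18.6 to 40.5) and 24 reads (15.4 to 35.7), for counting error only. The difference in mean log2(CPM + 1) was −0.12 (exact two-sided permutation p = 0.459, not adjusted), and −0.11 without RSD 40.

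Corin had 2 to 9 reads per library in CTR and 3 to 10 in RSD, at 1.56 ± 0.94 and 2.39 ± 1.46 normalised CPM (SD, n = 6 each). The group sums were 28 reads (18.6 to 40.5) and 37 reads (26.1 to 51.0). CTR 24 and RSD 33 were the highest libraries of their groups, and the groups overlapped. The difference in mean log2(CPM + 1) was 0.38 (exact two-sided permutation p = 0.24, not adjusted), 0.41 without RSD 40 and 0.19 without RSD 33. Neither difference passed, which on 52 reads of Npr3 and 65 of Corin in all does not show that the groups were alike.

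**Figure D2:**
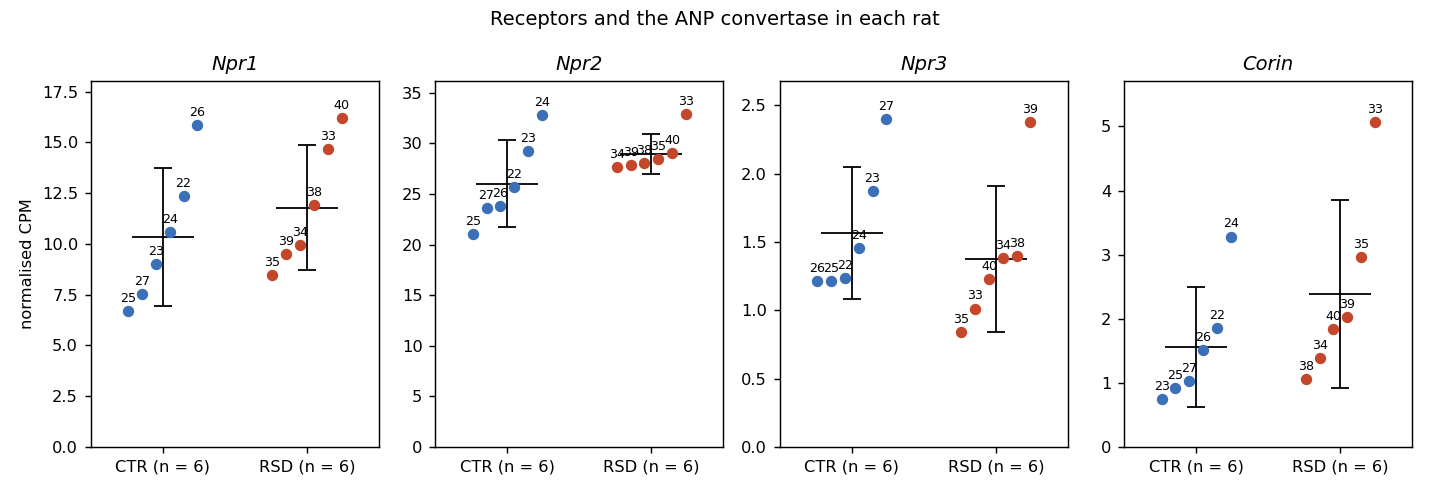
Normalised CPM of Npr1, Npr2, Npr3 and Corin in each rat (points, labelled by library number; horizontal line and bar, mean and SD, n = 6 per group), each panel on its own scale from 0. The groups overlap in all 4 panels, and 5 of 6 RSD libraries for Npr2 lie close together below RSD 33 at 32.9.

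The spread between rats was set beside the spread that counting reads alone would give (Poisson). For Nppa the SD was 26.5% of the mean in CTR and 62.9% in RSD, where counting gives 5.03% and 4.45%. For Nppb it was 24.4% and 30.8%, where counting gives 5.82% and 7.04%. Counting error was thus a small part of the spread of both peptide transcripts. Separate animals are expected to differ by more than counting error, and the difference in spread between groups was not tested. Npr1 also stood above counting error, at 32.8% and 26.1% beside 17.9% and 17.7%. Npr2 was at 16.6% in CTR and 6.81% in RSD, beside 11.4% and 11.3%, so its RSD values lay closer together than counting error alone gives on average. For Npr3 the observed spread (30.7% and 39.0%) was below the counting spread (46.5% and 50.8%), and for Corin (60.2% and 61.3%) somewhat above it (46.5% and 41.2%).

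**Figure D3:**
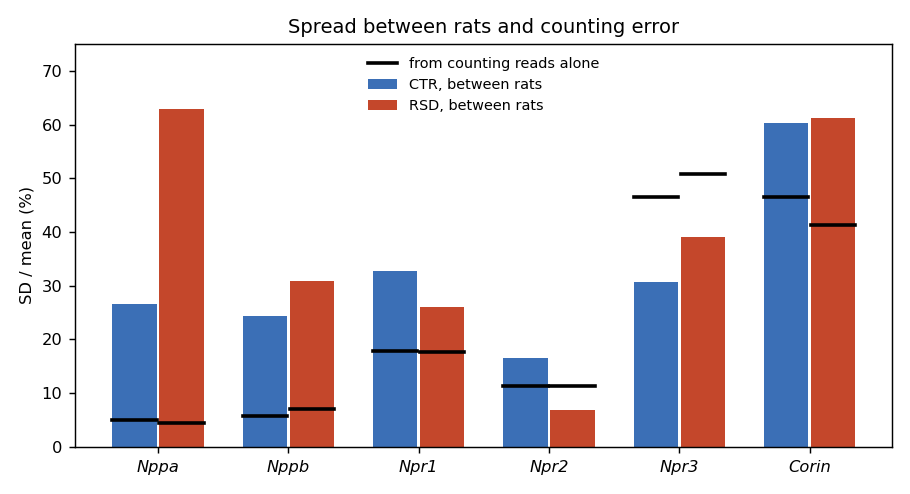
SD as a percentage of the mean over the 6 rats of each group for the 6 genes (bars), with the percentage expected from counting reads alone (black lines). Nppa in RSD reaches 62.9% beside 4.45% from counting, while Npr3 lies below its counting lines of 46.5% and 50.8%.

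Atrial transcripts were set beside Nppa, since atrial muscle is its main source. Of 11 atrial marker genes 9 had a read, and Bmp10 and Kcna5 had 0 reads in all 12 libraries. Sln, which encodes sarcolipin, had 20 reads in 6 libraries and was highest in RSD 40 (3.36 normalised CPM) and RSD 38 (1.40). The list summed to 191 to 241 normalised CPM in CTR and 205 to 268 in RSD. Most of this sum came from Gpr22, Dkk3, Tbx5 and Stard10, with CTR means of 69.1, 50.01, 41.5 and 22.1. The sum thus says little about the genes with lower values. Means in CTR and RSD were 18.6 and 28.7 for Myl4, 7.32 and 11.99 for Myl7, and 1.48 and 6.22 for Myl1. Sln had 0.17 and 0.89. Dkk3 (50.01 and 40.03) and Kcnj3 (0.23 and 0.046) had lower means in RSD, and the other genes with reads had higher means. Each of these genes alone overlapped between the groups. Myl4, the atrial essential light chain, was lowest in RSD 35 (10.2 normalised CPM), the library lowest for Nppa, and stood at 33.2 in CTR 25, the control highest for Nppa. It measured 35.1 to 39.8 in RSD 38, RSD 39 and RSD 40. Other rats were less alike. In RSD 33 Myl4 was 30.4 with Nppa at 111, and in RSD 34 it was 17.2 with Nppa at 157. Myl7, the atrial regulatory light chain, was highest in RSD 38 (24.5), as was Nppa, with the next library at 13.9 (RSD 39).

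With group means removed, Nppa and Myl4 had a Pearson r of 0.77 over 12 libraries (permutation p = 0.00869) and a Spearman rho of 0.79 (permutation p = 0.00684). Adjusted over the 7 atrial genes with at least 100 reads, these were 0.0608 and 0.0479. These correlations and the minimum of 100 reads were chosen after Myl4 had been seen to move with Nppa, so these p values are not independent support. The r was 0.77 within CTR and 0.78 within RSD, 0.60 without RSD 35 and RSD 38, and 0.79 without RSD 40. Myl4 thus passed adjusted p 0.05 by Spearman rho only. The other 6 genes passed by neither coefficient, with r from −0.16 for Gpr22 to 0.61 for Myl1. Myl1 and Tbx5 came near by rank, each with rho 0.67 (adjusted permutation p = 0.0609). Myl7 had r = 0.59 (permutation p = 0.133, adjusted p = 0.232), or 0.20 without the same pair of libraries. The part of atrial transcripts in the Nppa values was not tested. In tissue punches, fewer cells of a type and less RNA per cell cannot be told apart.

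**Figure D4:**
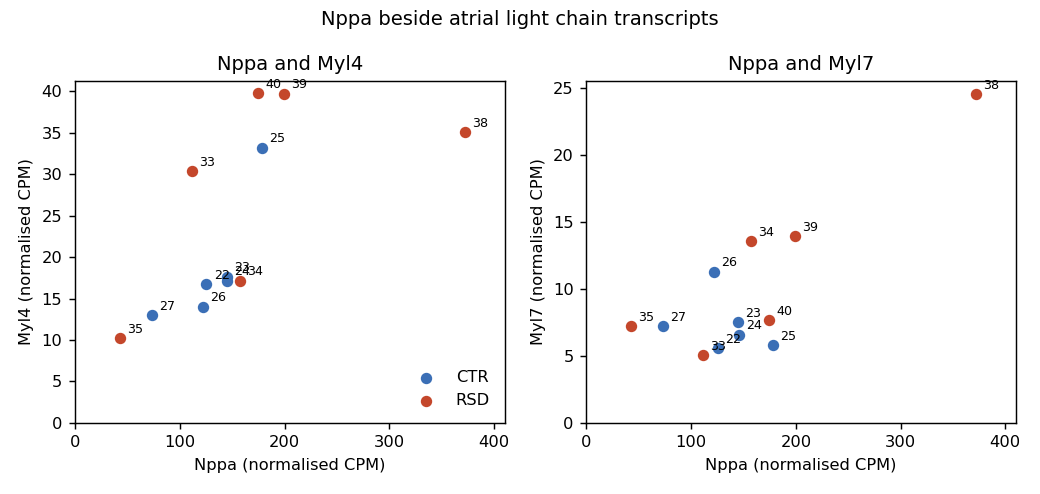
Nppa (horizontal axis) against the atrial light chain transcripts Myl4 and Myl7 (vertical axes) in each rat, all in normalised CPM and labelled by library number. RSD 35 is lowest for Nppa and Myl4, and RSD 38 is highest for Nppa and Myl7.

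Npr3 marks endocardial cells, which line the chambers, and was read beside other markers of that layer. The 4 markers (Npr3, Nfatc1, Plvap and Cytl1) all had reads, and summed to 14.3 to 19.5 normalised CPM in CTR and 19.9 to 31.0 in RSD. The sums of the groups did not overlap, whereas on the CPM as deposited they did (15.77 to 20.34 and 18.21 to 30.02). All other marker lists overlapped between the groups. How often sums of so few genes part the groups by chance was not worked out, so no result about endocardial cells is drawn. Without Npr3 the normalised sums were 13.1 to 18.3 and 19.1 to 29.6, which did not overlap either. Each of the 4 genes alone overlapped between the groups. The higher sums lay in Cytl1, at 9.35 ± 2.14 in CTR and 13.7 ± 3.53 in RSD, and in Nfatc1, at 4.83 ± 1.26 and 7.01 ± 1.83 (SD, n = 6 each). Plvap ranged from 1.026 to 3.65 in CTR and from 1.40 to 3.04 in RSD, and Npr3 itself had a lower mean in RSD, as given above. Without RSD 40 the sums were 14.3 to 19.5 and 19.99 to 30.9. Endothelial markers (7 rows) summed to 239 to 279 in CTR and 271 to 330 in RSD, and smooth muscle markers (5 rows) to 81.6 to 131 and 64.3 to 104. Their part in the receptor values was not tested.

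The remaining pathway was read from lists that hold 61 gene names with the members, of which 56 stood in the table and 43 were tested. Over adjusted p 0.05, 0 were higher and 0 lower in RSD. At an unadjusted p under 0.05, 1 was higher (Xirp2) and 3 were lower (Nppb, Dpp4 and Srf), 9.3% of the 43 beside 8.36% of all genes. The median log2 fold change was 0.03 over the 43 and 0.00 over all genes. Without RSD 40, 2 were higher (Xirp2 and Myocd) and 4 lower (Nppb, Dpp4, Srf and Furin) at an unadjusted p under 0.05, 0 passed adjusted p 0.05, and 2 of the 43 changed sign. The log2 fold changes without RSD 40 were −0.73 for Dpp4, −0.52 for Srf and 0.23 for Xirp2.

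Of the list of genes for processing and degradation of the peptides, 5 of 8 were tested, 4 of them below 0 and 1 above, with a median of −0.22. Dpp4, a peptidase that trims brain natriuretic peptide, stood at 8.04 ± 2.44 normalised CPM in CTR against 4.83 ± 2.46 in RSD (log2 ratio −0.73, 95% interval −1.37 to −0.09, limma adjusted p = 0.517). Furin, the convertase that cuts pro-BNP, measured 43.5 ± 6.86 and 35.8 ± 11.3 (−0.32, limma adjusted p = 0.639), and Ide, insulin-degrading enzyme, had −0.22. Mme, which encodes neprilysin, the main peptidase that degrades natriuretic peptides, was too low to be tested with the other genes. It had 41 reads in CTR, with reads in 6 of 6 libraries, and 13 in RSD, with reads in 4 of 6, at 2.28 ± 1.14 and 0.92 ± 0.95 normalised CPM. The difference in mean log2(CPM + 1) was −0.84 (exact two-sided permutation p = 0.0476, not adjusted for the number of genes looked at). Leaving out 1 library at a time, the difference ranged from −1.04 to −0.68. The exact p was under 0.05 in 4 of 12 cases (without CTR 22, CTR 25, RSD 33 or RSD 35) and at most 0.0931 (without CTR 27). The call is thus near the threshold, and each of these tests also has 1 library fewer.

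Of the cGMP effectors and phosphodiesterases, 9 of 15 in the table were tested, 7 above 0 and 2 below, with a median of 0.21 and 0 at an unadjusted p under 0.05. Gucy1a3 (0.30), a subunit of the soluble guanylate cyclase that answers to nitric oxide, and Pde1a (0.38) and Pde3a (−0.37), which break down cyclic nucleotides, had the smallest p values of this list. Pde5a, the cGMP-specific phosphodiesterase, had 6 reads in 2 CTR libraries and 18 reads in 4 RSD libraries, 11 of them in RSD 39 (exact two-sided permutation p = 0.294, not adjusted). The protein kinase gene Prkg1 was not analysed here.

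Of the transcription factors known to act on the Nppa and Nppb promoters, 15 of 16 were tested, 8 above 0 and 7 below, with a median of 0.03. Srf, serum response factor, stood at 29.5 ± 8.15 normalised CPM in CTR against 19.7 ± 5.88 in RSD (log2 ratio −0.56, 95% interval −0.98 to −0.15, limma adjusted p = 0.461). Its cofactor Myocd had 0.39 and Tbx5, a T-box factor, 0.27, and neither passed. Gata4, which binds the GATAA motif shown in both promoters, measured 26.9 ± 9.34 and 26.9 ± 5.30 (0.03, 95% interval −0.34 to 0.40). Tead1, a factor of the M-CAT element found in the Nppb window, had −0.25 (95% interval −0.67 to 0.16) and is named for that motif, after its value was seen.

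The 10 tested genes that are often read with natriuretic peptides under load had 6 above 0 and 4 below, with a median of 0.03. Xirp2, a protein of the intercalated disc, stood at 867 ± 89.4 in CTR against 1037 ± 116 normalised CPM in RSD (log2 ratio 0.26, 95% interval 0.06 to 0.46, limma adjusted p = 0.486). Ankrd23, of the stretch-responsive ankyrin repeat family, had 0.24 and Fhl1, a LIM domain protein, −0.18.

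**Figure D5:**
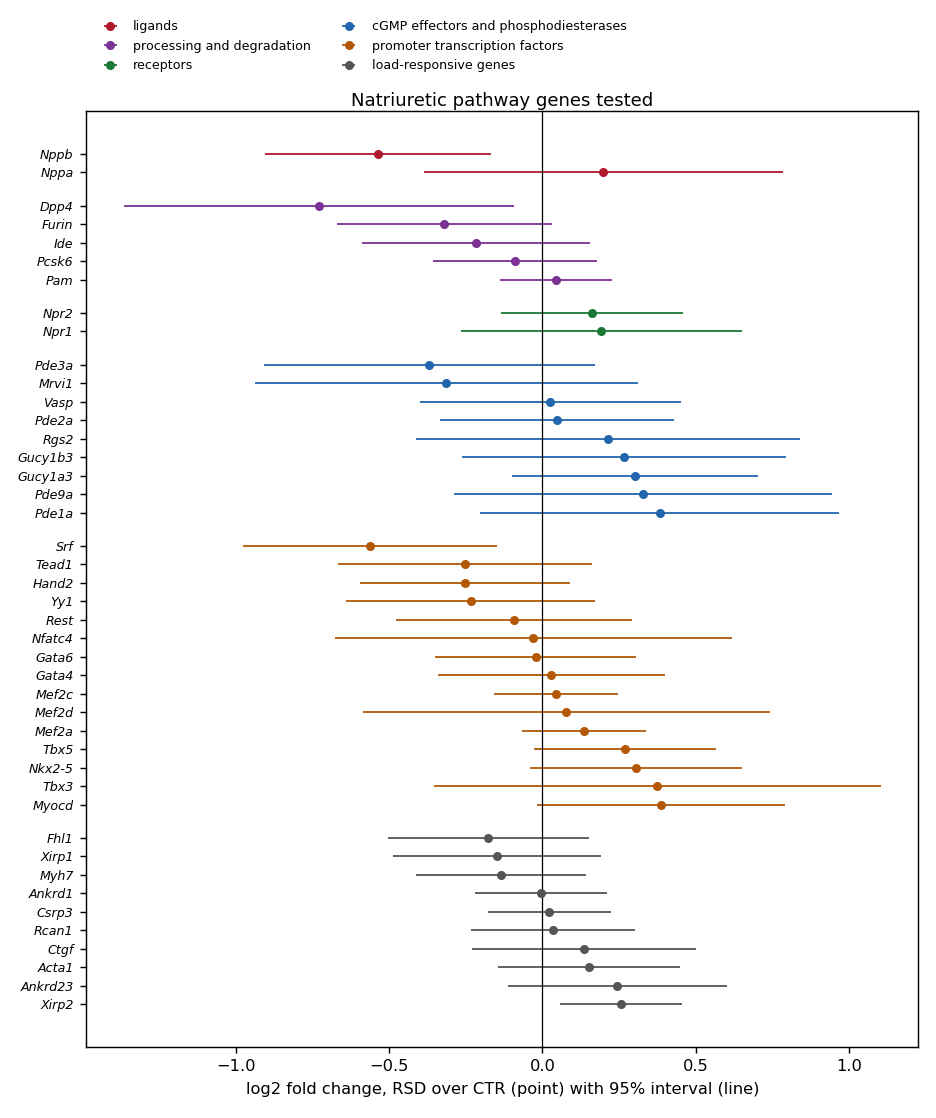
Log2 fold change, RSD over CTR, on the log2(CPM + 1) scale (points) with its 95% interval (lines) for the tested genes of the 6 pathway lists, coloured by list. The limma intervals, which draw on the variance of all genes tested, exclude 0 for Nppb, Dpp4, Srf and Xirp2 before adjustment. Of the genes shown, 0 passed limma adjusted p 0.05.

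The genes whose values most resembled those of a member were found among tested genes with a mean log2(CPM + 1) of at least 3, by Pearson r over the 12 libraries after removal of group means, as a description with no test. For Nppb these were LOC691921 (r = 0.94), Cd9 (0.94), Mrps14 (0.93) and Arf6 (0.92), with Spearman rho of 0.69 to 0.89 and r of 0.87 to 0.93 without RSD 33 and RSD 35. Cd9 encodes a tetraspanin of the cell surface, Mrps14 a mitochondrial ribosomal protein and Arf6 a small GTPase of membrane traffic. For Nppa they were Adh5 (0.84), LOC100359922 (0.81), Scd2 (0.80) and Rps6ka2 (0.80), with rho of 0.58 to 0.73. Without RSD 35 and RSD 38 these r fell to between 0.38 and 0.68, and leaving out the extremes of Nppa can itself lower r. For Corin, on 2 to 10 reads per library, they were Babam1 (0.90), Cmtm8 (0.87), Arfgap2 (0.86) and Ift20 (0.84), with r of 0.69 to 0.78 without CTR 24 and RSD 33. Without RSD 40 the r of these 12 genes were 0.81 to 0.94. The highest r among 5611 or 5612 candidates is large by selection alone.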

How the data were processed

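The values deposited by the authors were CPM (each library's reads scaled to an equal total), for 32735 rows and 12 libraries. Per the labels' protocols, 3' end libraries (QuantSeq forward kit) were made from 100 ng of total RNA. Per the submitters' processing notes, build rn6 and the tools STAR 2.6.0a, HTSeq 0.9.1, bcl2fastq and DESeq2 were used, with no roles named. The gene annotation they counted on is not stated. Low values were whole multiples of 1 step (1 read is worth 0.268 to 0.485 CPM), so reads were recovered. Each library's total was taken as the one, near the estimate from low values, that left most values whole, and with that choice 100% of the values above 0 were whole within 0.1 read. Precision for a low gene rests on few reads, and without molecular identifiers intervals cover counting error only.

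limma (3.58.1, R 4.3.3) with an intensity trend, two-sided, was fitted to log2(CPM + 1), each library first divided by its TMM factor (edgeR 4.0.16), over the 7511 genes kept by filterByExpr (minimum count 10), with Benjamini-Hochberg adjustment over all of them. The limma SE, intervals and p values combine each gene's own variance with a trend over all genes tested. Of the genes below the filter, Npr3, Corin, Mme and Pde5a have exact permutation tests over all assignments of 6 libraries to each group. Correlations used 100000 permutations within groups. The tests of Mme and Pde5a, the correlations with atrial genes, the comparison with counting error, and the endocardial sums without Npr3 and on deposited CPM were added after seeing the data, as were the values without RSD 40 for results other than the members and the alternatives for Dpp4, Srf and Xirp2. A fit without RSD 33 and RSD 35 together was run and dropped, because those libraries had been picked by their Nppb values. The fit was tested on simulated data. Alternatives were other scalings, pseudocounts and filters, edgeR, DESeq2 (1.42.0) and limma-voom on recovered reads, and leaving out each library. The groups share no library numbers, so nothing was paired. The hour of collection and any batches are not stated.

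Named genes are the 6 members, up to 3 genes of each pathway list with the smallest p, 6 set genes (Nppc, Furin, Mme, Pde5a, Prkg1 and Gata4) and the 4 genes most like Nppa, Nppb and Corin. Ostn, Tead1, the marker genes and the Y-linked genes are named beyond the rule. Members, lists and rule were chosen with earlier results of these data known. Promoter sequences are from RefSeq (build GRCr8), matched by symbol for 5 of 6 members; no coordinates of the rn6 table are given. One gene fixed in the marker lists is not reported here, and 2 others, with no row under their symbol, were not analysed here. Marker lists for fibroblasts, the conduction system, the epicardium and red blood cells were also summed.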

Additional observations from a re-analysis of the deposited data

Results flagged for a closer look

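In 2 of the 14 sets of 6 libraries checked (6 genes and the Nppa to Nppb ratio, in each group) 1 library stood apart from the other 5; chance gives about 1 in 20. For Npr2, RSD 33 was the highest library, with a gap to the next of 0.734 of the range of the RSD group, and its value rests on 65 reads. For Npr3, RSD 39 was the highest, with a gap of 0.637 of the range, on 7 reads. The highest Nppa library, RSD 38, had a gap of 0.525 and did not reach the critical value of 0.625.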

How the results depend on the processing

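Over 23 alternatives for Nppb, 22 for Npr1 and 23 for Npr2, and 20 each for Npr3 and Corin, the direction and the side of the threshold stayed as reported. Nppb had log2 fold changes from −0.63 to −0.40 (adjusted p 0.107 to 0.786), and Nppa took the opposite sign in 1 of 23 alternatives, with a range from −0.067 (without RSD 38) to 0.55 (without RSD 35) and adjusted p 0.592 to 0.982. Leaving out 1 library at a time gave 0 (without CTR 23, CTR 24, CTR 27, RSD 34 or RSD 40) to 41 genes (without CTR 22) past adjusted p 0.05 in limma, and 451 to 990 at an unadjusted p under 0.05. With no filter there were 0 and 953 genes, and with at least 50 reads in 6 libraries 1 and 334, beside 2 and 628 as reported. edgeR, DESeq2 and limma-voom called 2, 2 and 3 genes. The Nppa to Nppb difference ranged from 0.53 (without CTR 27) to 0.98 (without RSD 35), and passed an unadjusted exact p of 0.05 without RSD 35 or CTR 25; the cause was not tested. Dpp4 (22 alternatives), Srf (23) and Xirp2 (23) kept their sign and did not pass. Npr3 and Corin were below the filter and have no value by edgeR, DESeq2 or limma-voom, and Npr1 has none with at least 50 reads. No paired analysis was possible because the groups share no replicate numbers. Depth limits Npr3, Corin, Mme and Pde5a, at most 11 reads in a library.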

Other observations

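Other cell type markers gave these sums in normalised CPM. Fibroblast markers (6 rows) summed to 580.4 to 789.9 in CTR and 632 to 699 in RSD, and conduction markers (5 rows), with the pacemaker channel gene Hcn4 among them, to 23.5 to 58.0 and 35.1 to 72.4. Epicardial markers (3 rows) summed to 3.65 to 9.59 and 5.26 to 17.2, and red blood cell markers (5 rows) to 2384 to 13720 and 2415 to 26719. RSD 33, the lowest library for Nppb, was the highest for the conduction and epicardial sums and for Corin. RSD 33 was picked out after its values had been seen, and no relation was tested.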
